A study of Mus musculus with 15 samples.

Results

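Cytosolic ribosomal protein genes were followed across mouse colon, colon tumours and the tissue adjacent to them. The genes were chosen by symbol: every gene with a single annotated symbol that begins with Rpl or Rps and a digit, together with Rplp0, Rplp1, Rplp2 and Rpsa, without the S6 kinases and pseudogenes. On the array this gave 50 of 18193 genes, 26 named for the large subunit and 23 for the small subunit. The remaining one, Rps19bp1, encodes a protein that binds Rps19 and is not itself a ribosomal protein; it was taken in by its symbol and belongs to neither subunit. Each gene was read from its probe set with the highest mean over the 15 arrays.

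The cytosolic ribosome translates nuclear messenger RNA. Its small subunit decodes the message and its large subunit joins the amino acids, and each is built in the nucleolus from ribosomal RNA and proteins that are made in matching amounts. The messengers of these proteins begin with a run of pyrimidines, the terminal oligopyrimidine (TOP) motif, through which mTOR signalling controls their translation. Myc and RNA polymerase I activity raise ribosome production in growing cells, and Myc is a target of the Wnt pathway, which is released when Apc is lost.

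Expression was measured on 15 arrays of colon from male littermates aged 3 months on a C57BL/6 and 129 hybrid background, with 3 arrays in each of 5 groups. The groups were tumours of double mutant mice (APC+/-/Olfm4-/-), tissue adjacent to those tumours from the same genotype, Olfm4 mutant colon (APC+/+/Olfm4-/-), APC mutant colon (APC+/-/OLFM4(+/+)) and wild type colon (APC+/+/Olfm4+/+). Apc holds back the Wnt pathway, and Olfm4 encodes a secreted protein found in crypts and neutrophils; how either mutant allele was made is not given in the sources used here. The double mutant titles carry 2 animal numbers although the design speaks of 3 mice in each category, so 2 of the 3 arrays of adjacent tissue, and 2 of the 3 of tumour, share an animal. The spread that p-values are set against is that of these arrays, and some of it may be technical.

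All values are log2 intensities, which ran from 2.56 to 14.96 over the whole table, and a level can be set only against the same gene on other arrays. The one Olfm4 probe set stood between 2.97 and 3.32 on all arrays and checks nothing, and the position of the Apc probe sets relative to the mutation was not established. Colon markers were present, with the 7 measured colonocyte markers averaging 12.0 in tumours, 13.4 in adjacent tissue, 13.6 in Olfm4 mutant, 13.6 in APC mutant and 13.6 in wild type colon. The bacterial RNAs added as labelling controls have the same sequence on every array, yet their 3-prime probe sets exceeded their 5-prime ones by an amount that varied with the group. This spike-in difference averaged 4.98 ± 0.246 (SD, n = 3) in tumours, 4.12 ± 0.284 in adjacent tissue, 2.70 ± 0.528 in Olfm4 mutant, 2.23 ± 0.195 in APC mutant and 2.05 ± 0.0797 in wild type arrays. The same difference for Gapdh, a gene of the tissue itself, averaged 4.57 ± 0.336 in tumours, 3.97 ± 0.404 in adjacent tissue, 1.496 ± 1.10 in Olfm4 mutant, 0.663 ± 0.0524 in APC mutant and 0.589 ± 0.0428 in wild type arrays. The groups were run in blocks of array numbers, so run order and group cannot be told apart, and the spike-in difference is given below beside the results it moves with. The part of RNA quality, read from Gapdh, was not tested.

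The starts of a few genes are shown first, because the pyrimidine run at the start is the feature that these genes are known to share. Each line gives 15 bases before and 15 bases from the first RefSeq start of the gene, on the coding strand, with the longest run of C and T in capitals.
Rpl7a: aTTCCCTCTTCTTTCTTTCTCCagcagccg
Rps10: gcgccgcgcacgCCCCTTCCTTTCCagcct
Rps27: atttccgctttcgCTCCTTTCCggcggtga
Rplp2: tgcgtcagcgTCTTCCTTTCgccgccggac
Rpl35: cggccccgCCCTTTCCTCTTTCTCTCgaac
Rpl27a: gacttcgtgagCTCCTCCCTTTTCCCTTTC
Rpl38: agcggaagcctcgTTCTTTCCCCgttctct
Rps19bp1: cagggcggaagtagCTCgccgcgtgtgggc
In the build GRCm38.p6 these windows lie at chr2:26910792-26910821 on the plus strand (Rpl7a), chr17:27635230-27635259 on the minus strand (Rps10), chr3:90213634-90213663 on the minus strand (Rps27) and chr7:141447636-141447665 on the plus strand (Rplp2). The others lie at chr2:39005117-39005146 on the minus strand (Rpl35), chr7:109519180-109519209 on the plus strand (Rpl27a), chr11:114668565-114668594 on the plus strand (Rpl38) and chr15:80264292-80264321 on the minus strand (Rps19bp1). The first 4 were called lower in tumours than in wild type colon, Rpl35, Rpl27a and Rpl38 were not called lower by their kept probe sets, and Rps19bp1 is shown as the member that is no ribosomal protein.

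The run was 21 bases long in Rpl7a, 19 in Rpl27a, 18 in Rpl35, 13 in Rps10, 10 in Rplp2, 10 in Rpl38 and 9 in Rps27, and 3 in Rps19bp1. All ribosomal protein genes shown thus held a run of at least 8 pyrimidines, which most members did not. Other ribosomal protein genes had runs as short as that of Rps19bp1 or shorter, such as 3 in Rpl11 and 2 in Rps3a1. The RefSeq starts used here covered 44 of the 50 genes, and not Rpl7, Rpl8, Rps14, Rps20, Rps29 and Rps4l. Of the 44, 18 (40.9%) held a run of at least 8 pyrimidines, against 3205 of all 27025 genes with a start (11.9%). The motif CTTTC stood on the coding strand in 11 of the 44 windows (25%) and in 3.97% of all windows, and its complement GAAAG in 1 window (2.27%) and in 3.43% of all. Among the genes that were lower in tumours than in wild type colon, 5 of 12 windows (41.7%) held the run, as did 13 of 32 (40.6%) of the other members. These are matches of letters near an annotated start and were not tied to a measured transcription start.

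Most ribosomal protein genes lay at the top of the intensity scale. Of the 50, 34 had a mean over all arrays above 13, and 31 were above the 99th percentile of all genes. Another 8 had means under 9, among them Rps16 at 3.40, Rpl3l at 4.83, Rpl39l at 5.04, Rpl39 at 5.92 and Rpl37 at 7.09. A dim value of that kind was read from 1 probe set each and does not say that the gene was low, since intensities of different probe sets are not comparable. The deposited values carry no detection call.

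**Figure D1:**
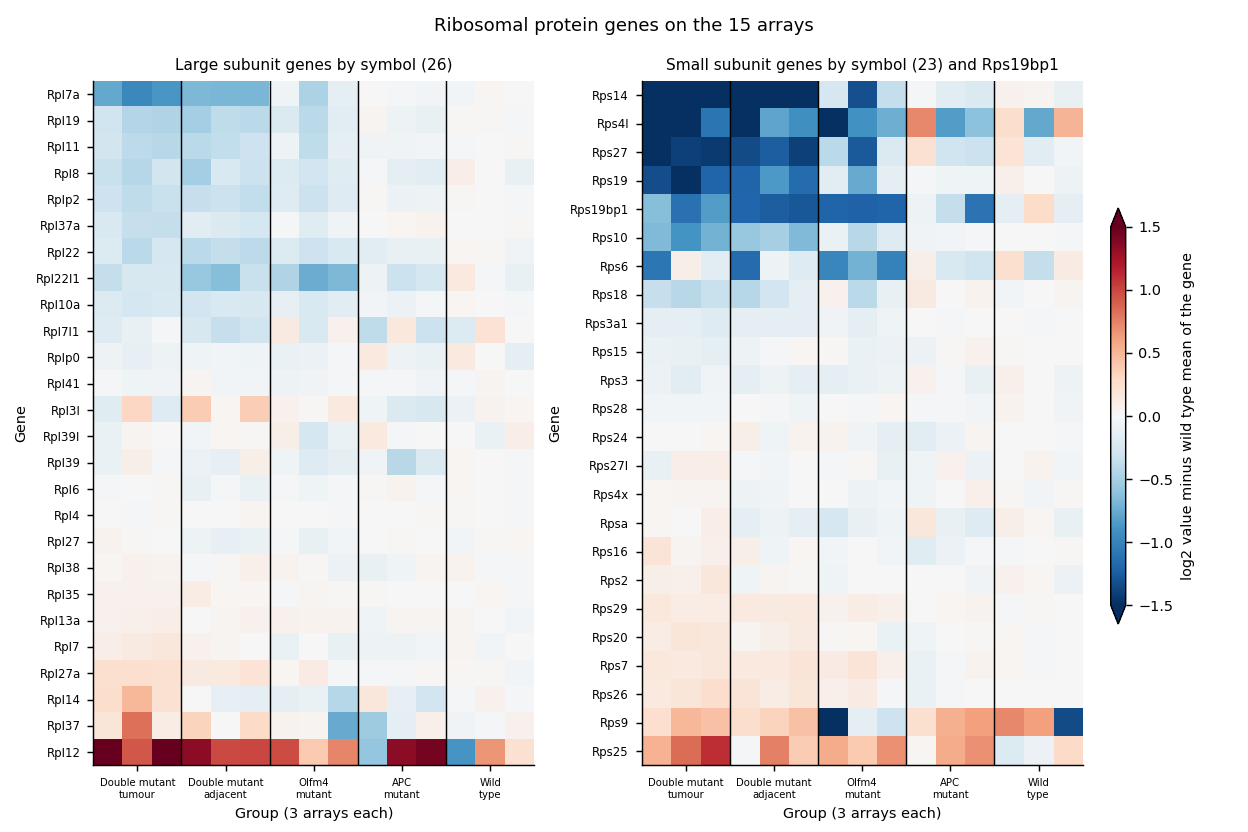
Log2 value of each gene on each array minus the mean of its 3 wild type arrays, with 1 row per gene and 3 columns per group; the left panel holds the 26 large subunit genes and the right panel the 23 small subunit genes and Rps19bp1, both ordered by the tumour mean, and colours stop at 1.5 in either direction. Most rows are pale in every group, while Rps14, Rps27 and Rps19 are blue in all tumour and adjacent arrays and bluer on array 2 than on the other Olfm4 mutant arrays.

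Tumours were first compared with adjacent tissue of the same mice. By the probe set kept for each gene, few ribosomal protein genes differed. By limma with Benjamini-Hochberg adjustment over all genes, 1 of the 50 genes (2%) passed an adjusted p of 0.05, against 28.1% of all genes. The only call was higher and 0 were lower, against 14.3% of all genes called higher and 13.8% called lower. The median difference was 0.02 on the log2 scale, against 0.00 for all genes, and 43 of the 50 genes differed by less than 0.25. The median absolute difference was 0.0763 for the ribosomal protein genes and 0.289 for all genes. The standard error (SE) of a difference had a median of 0.0925 over the 50 genes. In these bulk samples, fewer cells of a type and less RNA per cell cannot be told apart.

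Rpl14, a protein of the large subunit, was the gene called. It read 11.18, 11.41 and 11.14 in the 3 tumours, against 10.92, 10.79 and 10.78 in adjacent tissue. All tumour arrays stood above all adjacent arrays, and the difference was 0.41 (SE 0.13, adjusted p = 0.034). The call did not hold with tumour array 1 left out (adjusted p = 0.053), tumour array 2 (0.13), adjacent array 2 (0.097) or adjacent array 3 (0.094), nor with arrays of the same animal averaged (0.16) or the spike-in difference as a covariate (0.28). With the arrays of an animal as a fixed replicate block Rpl14 kept its call (adjusted p = 0.042). In the other groups it averaged 10.69 ± 0.18 in Olfm4 mutant, 10.83 ± 0.23 in APC mutant and 10.91 ± 0.058 in wild type colon (SD, n = 3 each).

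Genes without a call included those with the largest differences. Rps14 was at -0.49 (SE 0.22, adjusted p = 0.13) and Rps25 at 0.45 (SE 0.23, adjusted p = 0.17). Rps25 is needed for translation from several viral internal ribosome entry sites. The tumour arrays of Rps25 at 10.59, 10.91 and 11.19 overlapped the adjacent ones at 10.06, 10.83 and 10.46. Over the 50 genes, 10 had all tumour arrays above all adjacent arrays (23.6% of all genes did) and 7 had all below (22.3% of all genes). The large subunit held the 1 call among its 26 genes and the small subunit had 0 of 23, with medians of 0.03 for the large and -0.001 for the small subunit. At an unadjusted p under 0.05 the count over both subunits was also 1, against 6942 of all genes (38.2%). Of the 56 probe sets of the same genes that were not kept, all dimmer than the kept ones, 4 were called higher and 1 lower, with p-values adjusted over all probe sets. The 4 were 1 each of Rps20 at 0.98, Rps3 at 0.67, Rpl13a at 0.61 and Rpl37a at 0.55, whose kept probe sets stood between -0.09 and 0.06.

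Genes with means above 13 were counted as a second background, added after the data had been seen. This range does not match brightness closely. Over all genes 531 had means above 13, while 31 of the 50 ribosomal protein genes lay above the 99th percentile. Whether differences are compressed near the top of the scale was not tested. Of the 34 ribosomal protein genes with means above 13, 0 were called in tumours against adjacent tissue, against 146 of 497 other genes in that range (29.4%). The median absolute difference in that range was 0.0415 for the ribosomal protein genes and 0.181 for the others. A further 110 probe sets carry a ribosomal protein symbol among several symbols and were left out of the 50, so that 31 ribosomal protein symbols, among them Rpl3, Rpl5, Rpl10, Rplp1, Rpl36a and Rpl36al, have no value of their own. Of those 110 probe sets 0 were called between tumour and adjacent tissue (2 at an unadjusted p under 0.05), against 18.7% of all probe sets, and 101 differed by less than 0.25. In tumours against wild type colon 6 of them were higher and 22 lower (25.5% called, against 41.2% of all probe sets), with differences from -1.53 to 2.43. In adjacent tissue 5 were higher and 21 lower (23.6%, against 23.9%) and in Olfm4 mutant colon 1 was higher and 4 lower (4.55%, against 7.06%), both against wild type.

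Genes that build ribosomes were counted in the same comparison. Of 45 measured ribosome assembly factors 17 rose and 2 fell, with a median of 0.42. That is 42.2% called, against 28.1% of all genes. Nhp2, a protein of the snoRNA particles that modify ribosomal RNA, averaged 11.11 in tumours and 9.97 in adjacent tissue, a rise of 1.13 (SE 0.17, adjusted p = 2.4e-04). Ltv1, which helps export and mature the small subunit, rose by 1.06, the nucleolar protein Lyar by 0.79 and the helicase Ddx10 by 0.78. Of 14 genes of RNA polymerase I and its factors 3 rose and 1 fell, with a median of 0.28. That is 28.6% called, near the share of all genes. The largest subunit Polr1a rose by 0.78, Polr1e by 0.61 and the promoter factor subunit Taf1d by 0.40, while the polymerase subunit Znrd1 fell by 0.57. The difference between these lists and the ribosomal protein genes was not tested. The spike-in difference was 4.98 in tumour and 4.12 in adjacent arrays, and its part in the calls of these lists was not tested.

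Other messengers that carry the TOP motif had a median of 0.08 over 18 measured genes. Of these 2 rose and 0 fell (11.1% called, against 28.1% of all genes). They were the histone chaperone Nap1l1 at 0.84 (SE 0.11) and the poly(A)-binding protein Pabpc1 at 0.53 (SE 0.13). Of the 76 mitochondrial ribosomal protein genes, which make the separate ribosome of that organelle, 1 rose and 4 fell, with a median of -0.10. That is 6.58% of the mitochondrial genes called. Mrpl23 fell by 0.89 and Mrps6 by 0.58.

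**Figure D2:**
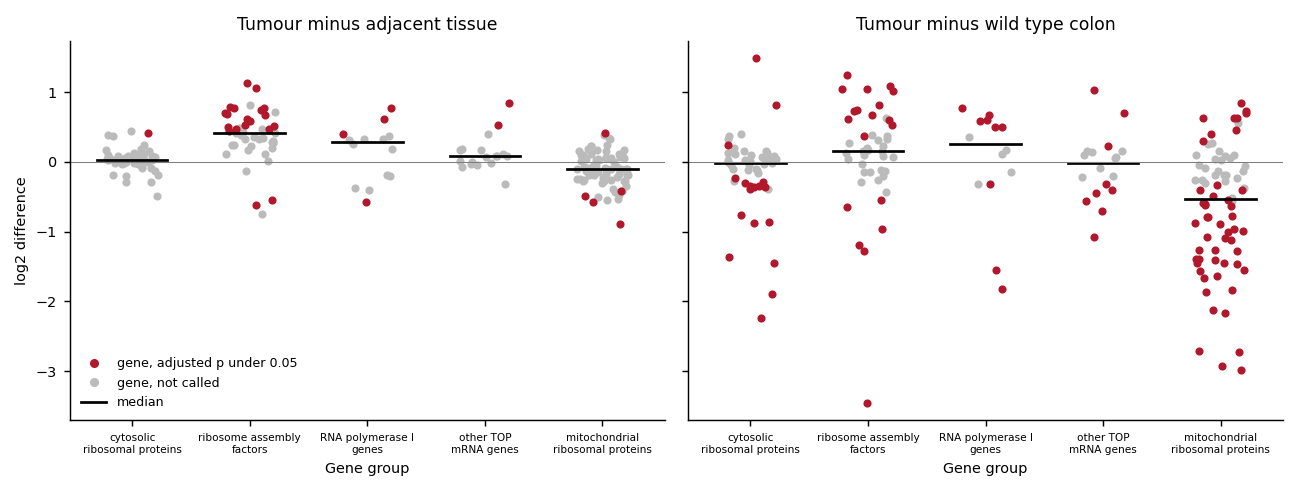
Log2 difference of each gene (1 point) in 5 gene groups, for tumours minus adjacent tissue on the left and tumours minus wild type colon on the right; red points passed an adjusted p of 0.05 and black bars are medians. In tumours against adjacent tissue the ribosomal protein points lie in a narrow band around a median of 0.02 and the assembly factors around 0.42, and against wild type colon the mitochondrial ribosomal proteins reach -2.98.

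Markers of other cell types differed between tumours and adjacent tissue beside these values. All 8 smooth muscle markers fell, with a median of -3.14 and a mean level of 9.29 (arrays from 8.74 to 10.4) in tumours against 12.4 (12.2 to 12.7) in adjacent tissue. Of the 7 measured colonocyte markers 5 fell and of the 8 measured B cell markers 7 fell. Of the 7 measured proliferation markers 5 rose, with a mean level of 12.0 (11.9 to 12.0) in tumours against 11.1 (10.97 to 11.21) in adjacent tissue, and of the 6 T cell markers 0 passed. The defining markers desmin, Cdx2 and Cd79a averaged 7.44, 9.91 and 7.20 in tumours, against 11.8, 12.7 and 9.77 in adjacent tissue. Their part in the values of the ribosomal protein genes was not tested.

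Tumours were then compared with wild type colon, and here a subset of the genes was lower. Of the 50 genes 18 (36%) passed, against 49.4% of all genes; 3 were higher and 15 lower, against 29.3% and 20.1% of all genes. The median difference over the 50 was -0.02, against 0.11 over all genes, and 29 of the 50 genes differed by less than 0.25. The large subunit had 2 higher and 8 lower of 26 and the small subunit 1 higher and 6 lower of 23; Rps19bp1 was also lower. With the spike-in difference as a covariate 0 of the 50 passed, and only 1 of all 18193 genes did (0.0055%), so that fit left almost no calls to compare. At an unadjusted p under 0.05 it gave 0 of the 50 and 7.64% of all genes. The difference was 4.98 in tumour and 2.05 in wild type arrays, and its part in the calls was not tested beyond that fit.

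Markers of other cells were called here too. In tumours against wild type colon all 8 smooth muscle markers were lower (median -3.79), 6 of 7 colonocyte markers were lower (median -1.16), 2 of 8 B cell markers were lower, 0 of 6 T cell markers passed and 5 of 7 proliferation markers were higher (median 1.27). The smooth muscle markers averaged 9.29 (arrays from 8.74 to 10.4) in tumours and 12.9 (12.4 to 13.7) in wild type colon. The part of these cells in the values of the ribosomal protein genes was not tested.

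The largest falls were in small subunit genes. Rps14, which sits near the exit of the message channel, read 11.56, 11.28 and 11.55 in tumours, against 13.77, 13.74 and 13.60 in wild type colon. It fell by 2.24 (SE 0.22, adjusted p = 5.2e-06), and no tumour array came within 2 log2 units of a wild type array. Rps19, the gene most often mutated in human Diamond-Blackfan anaemia, read 12.22, 11.97 and 12.34 in tumours, against 13.62, 13.54 and 13.46 in wild type colon. It fell by 1.37 (SE 0.16, adjusted p = 2e-05). Rps27, a zinc finger protein of the small subunit, read 7.18, 7.32 and 7.29 in tumours and 8.92, 8.56 and 8.67 in wild type colon, and fell by 1.46 (SE 0.23, adjusted p = 1.8e-04).

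Smaller falls were measured in brighter genes. Rps10, of the head of the small subunit, read 13.58, 13.34 and 13.53 in tumours, against 14.25, 14.25 and 14.23 in wild type colon. It fell by 0.76 (SE 0.10, adjusted p = 6.2e-05), with no overlap between the groups. Rpl7a had the largest fall of the large subunit, with 13.55, 13.35 and 13.45 in tumours and 14.28, 14.35 and 14.32 in wild type colon. The difference was -0.87 (SE 0.11, adjusted p = 3e-05). The other large subunit genes called lower, Rpl19, Rpl11, Rpl8, Rplp2, Rpl37a, Rpl22 and Rpl10a, differed by -0.40 to -0.23, and Rps18 by -0.36. With a fold change of at least 1.5 as well, 9 of the 50 genes were called, 2 higher and 7 lower, against 39.8% of all genes.

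Of the genes called higher, Rpl12, at the base of the stalk of the large subunit, was read from a dim probe set with a wide spread. It stood at 8.49, 7.58 and 8.34 in tumours, against 5.77, 7.31 and 6.87 in wild type colon, a difference of 1.49 (SE 0.49, adjusted p = 0.023). Without wild type array 1 the difference was 1.05 and did not pass (adjusted p = 0.10), nor did it without tumour array 1 (0.076) or 3 (0.070). Rps25 was 0.82 higher (SE 0.23, adjusted p = 0.0091) and Rpl27a 0.24 higher (SE 0.08, adjusted p = 0.028). The call of Rpl27a was lost in 5 of the 6 fits that left out an array, with adjusted p from 0.051 to 0.081. Rps4l, a relative of Rps4x, was called lower at -1.89 (SE 0.66, adjusted p = 0.029) with tumour arrays at 6.28, 7.04 and 7.85, against 9.21, 8.17 and 9.46 in wild type colon, and lost that call without tumour array 1 (0.11) or 2 (0.066), or wild type array 1 (0.075) or 3 (0.093).

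**Figure D3:**
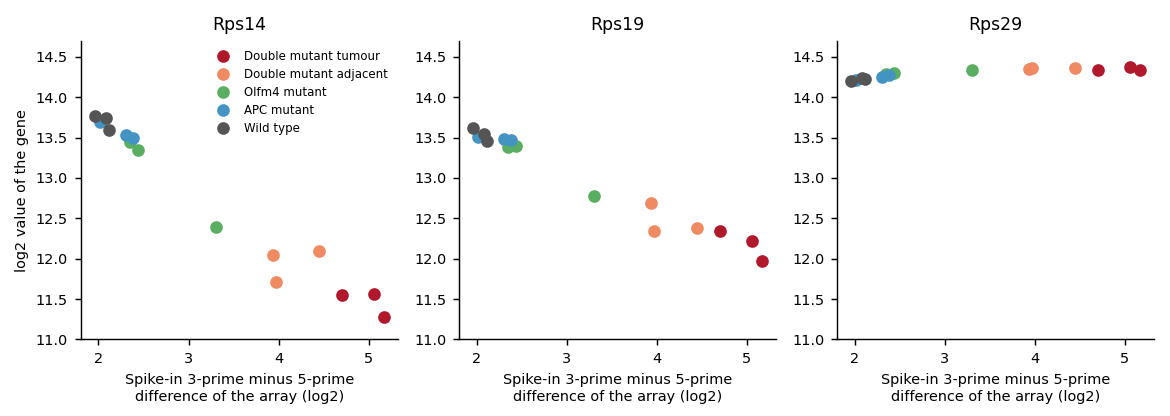
Log2 value of Rps14, Rps19 and Rps29 on each of the 15 arrays (vertical axis) against the spike-in 3-prime minus 5-prime difference of the array (horizontal axis, log2), coloured by group. Rps14 and Rps19 are low on the tumour and adjacent arrays, where the spike-in difference is high, and Olfm4 mutant array 2 lies apart from its group on both axes, while Rps29 stays between 14.20 and 14.38 on all arrays.

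Olfm4 mutant array 2 stood apart from its group both in the spike-in difference and in several genes that were lower in tumours. The spike-in difference of that array was 3.31, against 2.35 to 2.44 on the other Olfm4 mutant arrays, and its Gapdh difference was 2.76, against 0.753 and 0.971. Rps14 read 12.39 on it, against 13.45 and 13.34 on the other arrays of its group. Rpl7a read 13.85, against 14.26 and 14.18, and Rps19 read 12.78, against 13.39 on each of the others. Rps29, a zinc-binding protein of the small subunit that was not called in any comparison, read 14.34 on array 2, against 14.29 and 14.30.

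Adjacent tissue was also compared with wild type colon, against the same wild type arrays as the tumours. Of the 50 genes 13 (26%) passed, against 27.8% of all genes; 0 were higher and 13 lower, against 17.7% and 10.1% of all genes. The median was -0.05, against 0.13 for all genes. The large subunit had 8 lower of 26 and the small subunit 4 of 23, and Rps19bp1 was lower too. Rps14 read 11.71, 12.04 and 12.10 in adjacent tissue, against 13.77, 13.74 and 13.60 in wild type colon, and fell by 1.75 (SE 0.22, adjusted p = 4e-04). Rps27 fell by 1.32 (SE 0.23), Rps19 by 1.07 (SE 0.16), Rpl7a by 0.68 (SE 0.11) and Rps10 by 0.57 (SE 0.10). With the spike-in difference as a covariate 0 of the 50 and 0 of all genes passed, and at an unadjusted p under 0.05 it gave 0 of the 50 and 3.4% of all genes. That difference was 4.12 in adjacent and 2.05 in wild type arrays.

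Other genes of ribosome production were also called in adjacent tissue against wild type colon. Of the 45 assembly factors 4 rose and 15 fell, with a median of -0.27. Sbds, which releases the factor Eif6 from the new large subunit, averaged 7.15 in adjacent tissue and 9.86 in wild type colon and fell by 2.71 (SE 0.32). Gar1 fell by 1.61, Noc2l by 1.29 and Pes1 by 1.06, the first a snoRNA particle protein and the others factors of the large subunit. Of the 76 mitochondrial ribosomal protein genes 5 rose and 42 fell, with a median of -0.46, and Mrps18a fell by 2.53 and Mrpl14 by 2.46. Of the 14 RNA polymerase I genes 2 fell, the polymerase I promoter factor Ubtf by 1.45 and Znrd1 by 0.98. Of the 18 other TOP genes 1 rose and 6 fell, among them Hnrnpa1 by 0.95 and Fau, which encodes the ribosomal protein Rps30 behind a ubiquitin-like part, by 0.77. Calls made up 42.2% of the assembly factors and 61.8% of the mitochondrial genes, against 27.8% of all genes. They made up 14.3% of the RNA polymerase I genes and 38.9% of the other TOP genes.

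Against wild type colon the tumours gave 13 higher and 6 lower of the 45 assembly factors, with a median of 0.16. Sbds fell by 3.46, Eif6 by 1.28 and Gar1 by 1.19, while Noc4l, a small subunit factor, rose by 1.25. Of the RNA polymerase I genes 6 rose and 3 fell, with Ubtf at -1.82 and Polr1e at 0.77. Of the mitochondrial genes 9 rose and 41 fell, with a median of -0.54. Of the other TOP genes 3 rose and 6 fell, with Fau at -1.08, Nap1l1 at 1.03, Eif3l at 0.70 and Eif3k at -0.70. Calls made up 42.2% of the assembly factors and 50% of the other TOP genes, against 49.4% of all genes. They made up 64.3% of the RNA polymerase I genes and 65.8% of the mitochondrial genes. The spike-in difference differs between these groups as given above for the ribosomal protein genes.

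Markers of other cells were again measured beside these values. In adjacent tissue against wild type colon 0 of 7 colonocyte markers passed, 2 of 8 smooth muscle markers fell, 3 of 8 B cell markers rose and 1 of 6 T cell markers (Cd3e) rose. The B cell markers averaged 8.47 (arrays from 8.03 to 8.70) in adjacent tissue and 7.19 (6.47 to 8.17) in wild type colon. Of the proliferation markers Mcm2 rose, with 1 of 7 called. The part of these cells in the values of the ribosomal protein genes was not tested.

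Loss of Olfm4 with intact Apc left nearly all of the genes without a call. In Olfm4 mutant against wild type colon 2 of the 50 (4%) passed, against 7.92% of all genes; 0 were higher and 2 lower, against 5.42% and 2.5% of all genes. The median was -0.08 against 0.06 for all genes, and 40 of the 50 differences were negative. Rps19bp1 was the first of the 2 calls, with 10.04 on each of the 3 Olfm4 mutant arrays, against 11.12, 11.52 and 11.10 in wild type colon. It fell by 1.21 (SE 0.22, adjusted p = 0.010). The same gene read 10.61, 10.12 and 10.40 in tumours, 10.06, 10.01 and 9.97 in adjacent tissue and 11.18, 10.89 and 10.14 in APC mutant colon, so it was below wild type by 0.87 in tumours (adjusted p = 0.0050) and by 1.23 in adjacent tissue (adjusted p = 0.0018), and its difference in APC mutant colon was -0.51 (SE 0.22, adjusted p = 0.65).

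Rpl22l1, the paralog of Rpl22, was the other call. It read 12.77, 12.48 and 12.55 in Olfm4 mutant colon, against 13.37, 13.19 and 13.11 in wild type colon, and fell by 0.62 (SE 0.12, adjusted p = 0.014). Both calls were also past a fold change of 1.5, as were 6.21% of all genes. The call did not pass without Olfm4 mutant array 2 (difference -0.56, adjusted p = 0.065) or 3 (-0.60, adjusted p = 0.057), while Rps19bp1 passed in all 6 fits that left out an array. Both calls missed the threshold with the spike-in difference as a covariate, a fit that called 0.126% of all genes, at adjusted p = 0.17 for Rps19bp1 and 0.20 for Rpl22l1, and with only the arrays of the 2 groups, at 0.059 and 0.089. Of the 45 assembly factors 1 rose and 7 fell, with Sbds at -1.23, Noc2l at -1.03, Nhp2 at -0.97 and Pes1 at -0.96. Of the mitochondrial genes 1 rose and 12 fell, led by Mrps12 at -1.47. Of the other TOP genes Hnrnpa1 fell by 0.71 and Pabpc1 by 0.47, and 0 of the 14 RNA polymerase I genes were called. Calls made up 17.8% of the assembly factors, 17.1% of the mitochondrial genes and 11.1% of the other TOP genes, against 7.92% of all genes.

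One copy of the mutant Apc allele alone gave no call. In APC mutant against wild type colon 0 of the 50 genes passed by limma, as did 0% of all genes; at an unadjusted p under 0.05 the counts were 1 of 50 and 1324 of 18193. The median was -0.04 and 46 of the 50 genes differed by less than 0.25. Rpl12 at 0.73 (SE 0.49, adjusted p = 0.79) and Rps19bp1 at -0.51 had the widest differences, and the APC mutant arrays of Rpl12 at 6.07, 7.98 and 8.09 spanned most of the range of the gene. The assembly factors, RNA polymerase I genes, other TOP genes and mitochondrial genes had 0 calls as well. The spike-in difference was 2.23 in APC mutant and 2.05 in wild type arrays.

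Whether the effect of the Olfm4 mutation differed with Apc status was tested as an interaction, adjacent minus APC mutant tissue less Olfm4 mutant minus wild type colon, which was added after the data had been seen. Of all genes 0 passed (0% of 18193), and so did 0 of the 50, with 3 of the 50 and 1901 of all genes at an unadjusted p under 0.05. The double mutant tissue in this contrast lay next to tumours, so genotype and nearness to a tumour cannot be told apart. The spike-in difference was 4.12 in adjacent, 2.70 in Olfm4 mutant, 2.23 in APC mutant and 2.05 in wild type arrays, and its part was not tested.

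Genes of the stalk, the 5S particle and other roles were followed one by one. In the stalk, which recruits elongation factors to the large subunit, Rplp2 fell by 0.34 in tumours (SE 0.08, adjusted p = 0.0038) and by 0.35 in adjacent tissue (adjusted p = 0.0082), both against wild type, and Rplp0 was at -0.10 and -0.06 in those comparisons without a call. Rpl11, which with Rpl5 and 5S ribosomal RNA can bind the p53 regulator Mdm2, fell by 0.36 in tumours and by 0.36 in adjacent tissue, in both against wild type colon. Its tumour arrays were 13.91, 13.80 and 13.77, against 14.17, 14.20 and 14.21 in wild type colon. Rpsa, the small subunit protein that is also known as a laminin receptor, was at 0.16 in tumours against adjacent tissue and at 0.04 against wild type colon. All tumour arrays of Rpsa were above all adjacent arrays, and neither difference passed.

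Rps6, the target of S6 kinase, varied widely between arrays of a group. It read 10.49, 11.66 and 11.42 in tumours, 10.42, 11.50 and 11.39 in adjacent tissue, 10.60, 10.87 and 10.56 in Olfm4 mutant, 11.67, 11.35 and 11.28 in APC mutant and 11.82, 11.22 and 11.70 in wild type colon. The lowest tumour and the lowest adjacent array are replicate 1 of each group, which by the titles come from the same animal. All Olfm4 mutant arrays of Rps6 were below all wild type arrays, with a difference of -0.90 (SE 0.32, adjusted p = 0.097). Rpl13a, which in human monocytes is released from the ribosome after interferon treatment, stayed between 14.18 and 14.34 on all arrays by its brightest probe set.

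Paralogs and their parents were set side by side by their own changes. Rpl22, a large subunit protein that mice can live without, fell by 0.29 in tumours (adjusted p = 0.015, and 0.067 without tumour array 2) and by 0.38 in adjacent tissue (adjusted p = 0.0064) against wild type colon, while Rpl22l1 was at -0.28 (adjusted p = 0.078) and -0.51 (adjusted p = 0.0084). Rps27l, induced by p53, was at 0.03 in tumours and -0.02 in adjacent tissue, neither called, where its parent Rps27 fell. Rps4x was at 0.03 in tumours without a call, where Rps4l was called at -1.89. Rpl39l, known from testis, differed by -0.02 in tumours, and Rpl3l, known from heart and skeletal muscle, by -0.02. Rpl7l1 was at -0.11 in tumours and its parent Rpl7 at 0.13, neither called by the kept probe set. Another probe set of Rpl7l1 read 10.82, 10.96 and 10.94 in tumours, against 9.96, 10.38 and 10.36 in wild type colon, and was called higher by 0.67 (SE 0.14, adjusted p = 0.0017), and the remaining one stood at 0.40 without a call.

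The subunits were compared through the deviation of each gene from its own wild type mean. The mean over the 26 large subunit genes was -0.036 ± 0.0062 (SD, n = 3) in tumours, -0.088 ± 0.0215 in adjacent tissue, -0.091 ± 0.0615 in Olfm4 mutant and -0.032 ± 0.0281 in APC mutant colon. Over the 23 small subunit genes it was -0.291 ± 0.083 in tumours, -0.277 ± 0.128 in adjacent tissue, -0.208 ± 0.0679 in Olfm4 mutant and -0.008 ± 0.0344 in APC mutant colon. Large minus small was thus 0.255 ± 0.0889 in tumours, 0.188 ± 0.137 in adjacent tissue, 0.117 ± 0.101 in Olfm4 mutant and -0.0244 ± 0.0618 in APC mutant colon, beside 0.0871 for the SD of the wild type arrays. The spike-in difference had the same order over the groups, at 4.98 in tumours, 4.12 in adjacent tissue, 2.70 in Olfm4 mutant, 2.23 in APC mutant and 2.05 in wild type arrays, except that the gap was lower in APC mutant than in wild type arrays, and its part in the gap was not tested. As a score over chosen genes the gap was given no test.

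The gap rested on the mean. By the median over genes in place of the mean, the small subunit stood at -0.0008 in tumours, -0.046 in adjacent tissue, -0.077 in Olfm4 mutant and -0.020 in APC mutant colon. The large subunit stood at -0.042, -0.079, -0.084 and -0.038 in the same 4 groups, which put it slightly below the small subunit in each. With only the 27 genes that have a probe set of the plain kind, which is designed for 1 transcript, large minus small was -0.126 in tumours, 0.0495 in adjacent tissue and 0.0113 in Olfm4 mutant colon. Several of these plain probe sets are dim, with means under 9, although the kept probe set of the gene is bright. Among them are those of Rps9, Rps10, Rps18, Rps20 and Rps24, and of Rpl35 and Rpl41 in the large subunit. Their part in the change of the gap was not tested.

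**Figure D4:**
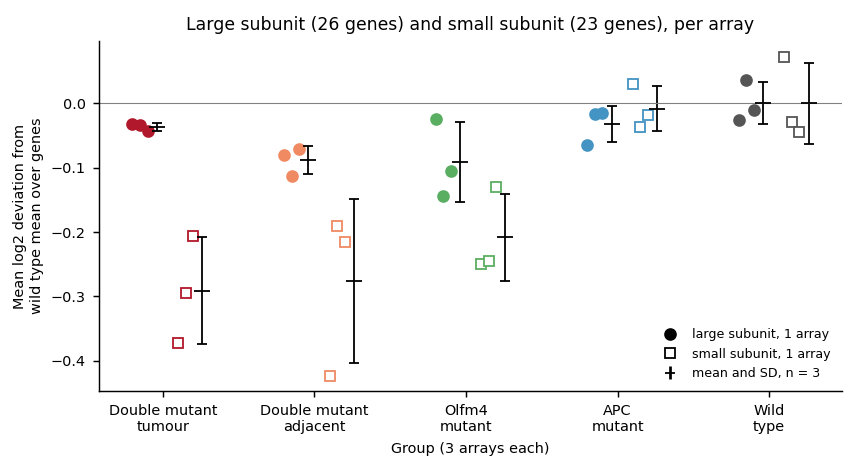
Mean log2 deviation from wild type over the 26 large subunit genes (filled circles) and the 23 small subunit genes (open squares), 1 symbol per array, with the group mean and SD (n = 3) beside them. The small subunit means of tumour, adjacent and Olfm4 mutant arrays lie between -0.423 and -0.130, below every large subunit mean of tumour and adjacent arrays.

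Several genes were measured by more than 1 probe set, and these did not always move together. The 50 genes have 106 probe sets with a single symbol, and 24 genes have more than 1. The kept probe sets comprise 14 with the suffix x and 1 with the suffix s, which can match several transcripts, 19 with the suffix a, and 16 of the plain kind. In tumours against wild type colon 5 of the 24 genes had probe sets called higher and none lower, 8 had probe sets called lower and none higher, 1 (Rpl13a) had both and 10 had no call, with p-values adjusted over all probe sets. In tumours against adjacent tissue 4 had a probe set called higher only, 1 lower only and 19 none.

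The probe sets of Rps14 gave matching values. The second probe set read 11.20, 10.80 and 11.17 in tumours, against 13.37, 13.11 and 13.29 in wild type colon, and so fell by 2.20 where the kept one fell by 2.24. The 5 bright probe sets of Rps10 fell by 0.57 to 1.53, and its dim one, with a mean of 6.22, stood at 0.22. For Rps9, a small subunit protein at the message entrance, the probe sets disagreed. The kept one read 13.53, 13.78 and 13.72 in tumours, against 14.01, 13.90 and 11.94 in wild type colon, where the third array stood alone, and it read 10.65 on Olfm4 mutant array 1. Another bright probe set of Rps9 read 11.95, 11.65 and 12.09 in tumours, against 14.05, 13.99 and 13.91 in wild type colon, and fell by 2.08 (SE 0.22, adjusted p = 8.7e-06).

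The probe sets of Rpl13a moved in opposite directions. In tumours against wild type colon one fell by 0.81 (SE 0.14), another rose by 0.39 (SE 0.13), and the kept one was at 0.08. Against adjacent tissue the second of these rose by 0.61 (SE 0.13, adjusted p = 0.0048). A second probe set of Rps3 was higher in tumours, at 11.65, 11.83 and 11.91, against 10.91, 11.20 and 11.28 in adjacent tissue, a rise of 0.67 (SE 0.12, adjusted p = 0.0019), while the kept one was at 0.01. Rpl27 fell by 0.70 in tumours against wild type colon by a plain probe set and stood at 0.02 by the kept one. The values of such genes depend on the probe set that is read. Where the probe sets lie was not established, and the cause of the disagreement was not tested.

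**Figure D5:**
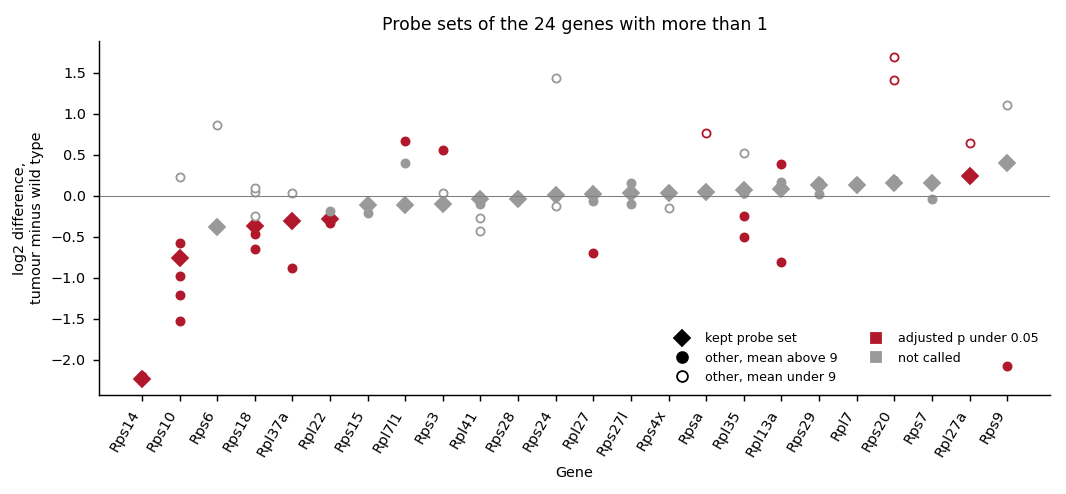
Log2 difference between tumours and wild type colon for each probe set of the 24 genes with more than 1, ordered by the kept probe set (diamonds); other probe sets are circles, open where their mean is under 9, and red marks an adjusted p under 0.05. Probe sets of Rps14 and Rps10 with means above 9 all lie below 0, and those of Rps9 and Rpl13a lie on both sides of 0.

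Genes whose arrays did not overlap were counted in both directions. In tumours against wild type colon 15 of the 50 genes had all tumour arrays higher (33.3% of all genes did) and 18 all lower (21.9%). In adjacent tissue against wild type colon 7 were all higher (26.2% of all genes) and 19 all lower (14%). In Olfm4 mutant colon 4 were all higher (17%) and 18 all lower (10%), and in APC mutant colon 0 were all higher (4.66%) and 4 all lower (4.47%). Among the genes higher without overlap in tumours but not called were Rps29, Rps20, Rps7 and Rps26, at 0.13, 0.15, 0.16 and 0.19. These are the kept probe sets, and 2 dim probe sets of Rps20 were called higher, at 1.69 (SE 0.27, adjusted p = 2.6e-04) and 1.42 (SE 0.33, adjusted p = 0.0037). Among genes with means above 13, 11 of 34 ribosomal protein genes (32.4%) were called in tumours against wild type colon, against 261 of 497 others (52.5%), and in adjacent tissue 8 of 34 (23.5%), against 124 of 497 (24.9%).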

How the data were processed

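Colon RNA was prepared with Trizol, labelled with biotin and read on Affymetrix Mouse430_2 arrays, as the labels' protocols state. Per the submitters' processing notes the deposited log2 values come from RMA and Partek 6.5 was used; that they are log2 follows from their range. RMA gives all arrays the same distribution, so a shift of most genes is largely removed. The genome build is not given in the sources used here, no detection calls were used, and the precision is limited by the number of arrays. Of 45101 probe sets 64 are controls and 34945 have a single gene symbol in the platform annotation; the brightest per gene gave 18193 genes, with no filter on dim genes.

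All 15 arrays entered 1 linear model of 5 group means (limma 3.58.1, R 4.3.3), with Benjamini-Hochberg adjustment over all genes in each comparison and a threshold of 0.05. P-values of genes are from limma. Members, gene lists and comparisons were chosen with earlier results of these data known. Named were, in each comparison, up to 6 called members in either direction with the largest differences, the paralogs and their parents, the stalk, 5S particle and other genes of fixed role, and up to 4 called genes of a list; any other member was named with its values already known. The spike-in difference is the mean over dap, lys, phe and thr of the 3-prime minus the 5-prime probe sets.

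Tumour and adjacent arrays come from 2 animals by their titles, with replicate 1 from one and replicates 2 and 3 from the other. The main model had no block and took these arrays as independent. Animal was the block only in alternative fits. Deviations from group means correlated at -0.0155 to 0.281 within an animal and at -0.259 to -0.0881 between animals. Deviations cancel out within a group, so these correlations are linked and negative ones arise whatever the animal. They do not test the block. Simulated data with known changes served to test the model. The alternatives were other probe set choices, cyclic loess, the spike-in covariate, only genes above the median mean, array weights, only the groups compared, blocks or averages by animal, a fold change of at least 1.5, and each array left out. Start sequences are from RefSeq, GRCm38.p6.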

Additional observations from a re-analysis of the deposited data

How the results depend on the processing

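With the spike-in difference as a covariate, which moves with the groups, 0 ribosomal protein genes were called in tumours against adjacent tissue, tumours against wild type, adjacent against wild type and Olfm4 mutant against wild type colon, where that fit called 12.6%, 0.0055%, 0% and 0.126% of all genes. In that fit 5 of 12 named genes changed sign in tumours against wild type (Rps27 0.92, Rps19 0.27, Rplp2 0.0315, Rpl11 0.00735, Rpl27a -0.0935) and 2 of 10 in adjacent tissue (Rps27 0.35, Rps19 0.082). For tumours against adjacent tissue the count was 2 with the mean of probe sets, 3 of 27 with plain probe sets and 2 with array weights (1 higher, 1 lower). It was 0 with animals averaged and 0 with a fold of at least 1.5, where 22.8% of all genes were called. The median was 0.10 after cyclic loess and 0.0544 with the covariate. For tumours against wild type the count was 9 with that fold, against 39.8% of all genes. The median was 0.0128 after loess, 0.00468 with the covariate and -0.041 over genes above the median mean. For adjacent against wild type the count was 6 of 27 with plain probe sets and 8 with the 2 groups alone. It was 5 with that fold, against 20.8% of all genes. The median was -0.08 over genes above the median mean and -0.0321 with array weights. Rps10 stood at 0.44 there by its plain probe set. For Olfm4 mutant against wild type the count was 1 of 27 with plain probe sets and 0 with the 2 groups alone. For probe set choices, array weights, animals averaged and the 2 groups alone, the share of all genes called is not given here. Large minus small with plain probe sets, several of them dim, was -0.126, 0.0495 and 0.0113 in tumour, adjacent and Olfm4 mutant arrays. The cause of these changes was not tested.

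Leaving out 1 array gave 0 to 1 calls in tumours against adjacent tissue (median 0.00606 to 0.0461), 13 to 15 in tumours against wild type (-0.0415 to 0.0038), 11 to 12 in adjacent against wild type (-0.0912 to -0.0317), 1 to 2 for the Olfm4 mutant (-0.10 to -0.057) and 0 to 0 for the APC mutant (-0.05 to -0.02). With animal as a fixed replicate block 1 gene was called in tumours against adjacent tissue, and no call of a named gene changed. A random block had a correlation of 0.35. For the fits with 1 array left out or an animal block, the share of all genes called is not given here. Other calls of named genes lost in tumours against wild type were Rplp2 (adjusted p = 0.053) and Rpl22 (0.091) after loess, Rpl27a (0.071) and Rpl22 (0.051) with animals averaged, and Rpl27a (0.11) and Rpl22 (0.091) with the 2 groups alone. In adjacent tissue against wild type they were Rpl22l1 (0.051), Rplp2 (0.061) and Rpl11 (0.059) with the 2 groups alone and Rpl22 (0.11) with the mean of probe sets. Signal over background could not be judged without detection calls.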
